A study of Mus musculus with 36 samples.

Results

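Fibroblast growth factor (Fgf) signalling was followed at the level of mRNA through 10 of the 22761 genes in the table, 6 ligands (Fgf1, Fgf2, Fgf7, Fgf8, Fgf9 and Fgf10) and 4 receptors (Fgfr1, Fgfr2, Fgfr3 and Fgfrl1). They were chosen by their gene symbol as Fgf genes with a role in kidney development, with no measured value in the rule, and all 10 were found. Earlier results of these data were known when they were chosen. RNA had been sequenced from 36 samples of cells of the early mouse kidney, 4 in each of 9 groups, and the question set by the design is how progenitors made from embryonic stem cells compare with their counterparts in the embryo. Cells of the ureteric bud (UB), progenitors of the nephron (NP) and progenitors of the stroma (SP) were sorted from kidneys of CD1 mouse embryos at embryonic day (E) 11.5 and E12.5, and these are called ex-fetu cells. Their counterparts were made from mouse embryonic stem cells (mESC): the engineered ureteric bud, eUB, from Sox9-mCherry-mESC, and the induced progenitors, iNP and iSP, from E14 mESC. The line is named so in the labels and methods of the RNA samples, while the study elsewhere describes a Sox8-mCherry line, so which gene drove the mCherry used to sort eUB cells is uncertain.

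UB cells were sorted as positive for RET and EpCAM, and eUB cells as positive for EpCAM and mCherry. NP and iNP cells were high in ITGA8 and low in PDGFRA, SP and iSP cells the reverse, after cells with CD31, EpCAM or RET had been gated out. The embryos of a litter were pooled for each ex-fetu sample and the embryoid bodies of a batch of differentiation for each ES-derived sample, so that the ES-derived groups rest on a single cell line each. The paper made iNP and iSP in the same culture, so samples of these cell types may share a batch, and ex-fetu cell types may share a litter. Which samples did is not given in the sources used here. Outside the replicate block, the tests below take the groups as independent. Strain and origin differ together between ex-fetu and ES-derived cells, and their parts in a difference cannot be told apart. Human FGF9 protein was part of both differentiation protocols: it was left out of the last media of the eUB protocol and stayed to the end in that of iNP and iSP. No ES-derived group made without it was sequenced. For the ex-fetu UB samples the labels disagree: the title and the cell source name opposite ages in every one of the 8. Titles were followed here, and the direction of any difference between the UB ages depends on that choice. Were the cell source right instead, each value of eUB against E11.5 UB would be one against E12.5 UB and the reverse, and the UB side of every test that sets UB beside NP or SP at an age would rest on cells of the other age.

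Fgf ligands are secreted proteins that bind heparan sulphate and pair Fgf receptors on the cell surface, whose tyrosine kinase then drives the Ras-MAPK relay and the transcription of feedback inhibitors such as the Sprouty genes. In the embryonic kidney, Fgf9 together with Fgf20 keeps nephron progenitors from differentiating, Fgf8 is needed by their first epithelial descendants, Fgf7 and Fgf10 from the mesenchyme act on the branching ureteric bud through Fgfr2, and Fgfr1 and Fgfr2 are needed together by the metanephric mesenchyme. Fgfrl1 binds ligand but lacks a kinase domain, and it too is required for nephrons to form.

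Fgfr1, Fgfr2 and Fgfr3 are each spliced with 1 of 2 alternative exons, IIIb or IIIc, that encode the end of the third immunoglobulin-like domain and set which ligands bind: the IIIb form of Fgfr2, typical of epithelia, is the receptor for Fgf7 and Fgf10, and the IIIc form, typical of mesenchyme, binds Fgf8 and Fgf9. The table sums all forms of a gene, so the forms were not measured here, and the Fgfr2 values below are of both. The IIIb exon of Fgfr2 (ENSMUSG00000030849) lies on the minus strand at chr7:130199758-130199905 in GRCm38 and is part of 10 annotated transcripts in GENCODE vM21. It is shown because it makes the receptor one for Fgf10, and it is in lower case throughout, with no stretch marked.
Fgfr2 IIIb: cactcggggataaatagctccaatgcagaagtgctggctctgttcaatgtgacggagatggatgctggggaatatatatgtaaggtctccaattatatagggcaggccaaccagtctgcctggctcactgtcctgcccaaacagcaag
The exon has 148 bases and, over aligned columns, is 73.5% identical to the IIIb exon of Fgfr1 and 54.9% identical to that of Fgfr3.

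Fgf9 and Fgf10 differed in opposite directions between ES-derived and ex-fetu nephron progenitors, and the 250 bases upstream of their RefSeq starts are shown for that reason (GRCm38.p6). Fgf9 (ENSMUSG00000021974) spans chr14:58070547-58112720 and Fgf10 (ENSMUSG00000021732) spans chr13:118669791-118792115, both on the plus strand. Both windows lie outside annotated exons.
Fgf9, chr14:58072436-58072685: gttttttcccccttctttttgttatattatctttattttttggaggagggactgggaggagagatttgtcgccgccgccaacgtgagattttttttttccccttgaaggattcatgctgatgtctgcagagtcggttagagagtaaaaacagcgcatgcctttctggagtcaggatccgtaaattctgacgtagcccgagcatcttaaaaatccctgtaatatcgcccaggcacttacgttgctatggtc
Fgf10, chr13:118714449-118714698: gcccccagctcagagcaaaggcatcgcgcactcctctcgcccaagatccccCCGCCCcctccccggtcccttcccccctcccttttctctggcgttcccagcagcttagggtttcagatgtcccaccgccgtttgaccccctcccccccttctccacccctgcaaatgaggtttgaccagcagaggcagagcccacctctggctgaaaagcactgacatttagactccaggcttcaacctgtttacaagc
The letters searched on both strands of each window were those of the GC box, GGGCGG. The CCAAT box was searched as its name is spelled. For the TATA box the letters were TATAAA. The core bound by ETS factors, which act below the MAP kinases, was searched as CCGGAA. The Fgf9 window, with 44.8% G and C, held none of these letters, and the Fgf10 window, with 61.2% G and C, held 1 GC box on the opposite strand, 199 bases before the start and in capitals above, and being the only match it overlapped no other. Of 32851 windows of this length in the RefSeq table, 32.7% held a GC box, 33.8% a CCAAT box, 12.4% a TATA box and 12% an ETS core. A match of letters is not a site that a factor was seen to use. Among the members 7 had a window in that table, and Fgf1, Fgf8 and Fgfr1 did not.

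Values are normalised CPM, that is, CPM as the authors scaled them with edgeR, with CPM the count of a gene relative to all reads of its library. In all 36 libraries the values were whole multiples of 1 read, and the reads so recovered numbered from 13.0 M (eUB replicate 1) to 52.54 M per library. A level of 3 reads, taken as the limit of detection, was 0.0605 to 0.223 normalised CPM, and covers counting error only. Marker genes followed the labels of the sorted cells: the summed level of 10 UB markers was 2415 to 4777 normalised CPM in the UB and eUB libraries and at most 342 elsewhere. In iNP cells 9 NP markers summed to 794 to 1245 against 1787 to 1970 in E11.5 NP, with Six2 at 139 against 590 and Cited1 at 2.95 against 31.3. In iSP cells 9 SP markers summed to 1615 to 1765 against 1635 to 2246 in E11.5 SP, with Pdgfra, used in the sort, at 410 against 343 but Foxd1, the defining stromal gene, at 15.2 against 410. Macrophage markers (6 genes) summed to 41.6 to 91.7 in ex-fetu UB libraries and at most 0.426 in eUB, erythroid markers (6 genes) to 44.2 to 2399 in ex-fetu SP and at most 0.141 in any ES-derived library, and neural markers (6 genes) to 56.0 to 96.6 in iNP and iSP against at most 21.2 in ex-fetu NP and SP. Endothelial markers (6 genes) summed to 49.3 to 82.2 in iNP against 7.66 to 29.4 in ex-fetu NP, with no overlap. They summed to 36.3 to 53.9 in iSP against 26.8 to 46.6 in ex-fetu SP, and to 9.95 to 15.2 in eUB, where Cdh5 and Emcn were at 0. Pluripotency markers (4 genes) summed to 3.35 to 5.65 in iNP and iSP against at most 1.14 in ex-fetu NP and SP, and to 2.45 to 3.37 in eUB against 0.285 to 1.28 in E11.5 UB. The part of these cells in the differences given below was not tested.

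The libraries numbered 1 of the E12.5 groups stood apart. In E12.5 UB replicate 1 the NP markers summed to 539 normalised CPM, against 56.3 to 88.7 in the other 3 libraries, the SP markers to 339 against 17.0 to 32.5, the endothelial markers to 91.9 and the pluripotency markers to 15.6, each the highest of any library, and the UB markers to 2415 against 3704 to 3974. In E12.5 NP replicate 1 the NP markers summed to 1648 against 2490 to 2715, and in E12.5 SP replicate 1 the SP markers to 1917 against 3343 to 3422. Where leaving one of them out changed a call of a member, or turned a called value around, the value without it is given below.

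Fgf10, which signals from mesenchyme to the ureteric bud, was the most abundant of the 6 ligands per kb of exon in E11.5 NP cells and was far lower in their ES-derived counterparts. Its level in replicates 1 to 4 was 44.6, 51.8, 61.3 and 66.9 normalised CPM in E11.5 NP, 51.4, 86.8, 76.2 and 74.3 in E12.5 NP, and 8.48, 5.80, 9.93 and 10.1 in iNP. Every iNP library was below every ex-fetu NP library. On the log2(value + 1) scale, on which all changes here are given and which understates the change of genes at low levels, Fgf10 was lower in iNP than in E11.5 NP by 2.59 (log2 fold change -2.59 ± 0.18 SE, limma adjusted p = 2.4e-06), with means of 8.57 ± 1.98 and 56.2 ± 9.92 normalised CPM (SD, n = 4), a 6.56-fold difference of means. Against E12.5 NP it was lower by 2.94 in size (-2.94, limma adjusted p = 4.1e-06).

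Stromal cells showed the same direction at lower levels of Fgf10. The levels were 19.7, 17.3, 18.9 and 16.8 normalised CPM in E11.5 SP, 9.59, 10.6, 10.8 and 10.6 in E12.5 SP, and 3.19, 3.76, 3.32 and 3.92 in iSP, with no overlap between these groups. The log2 fold change of iSP was -2.08 ± 0.10 (SE) against E11.5 SP (limma adjusted p = 3.4e-07), a 5.12-fold difference of means, and -1.33 against E12.5 SP (limma adjusted p = 5.9e-06). In a bulk sample, fewer cells that express a gene and less RNA per cell cannot be told apart.

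The ureteric bud held little Fgf10. Its level was 1.74, 1.73, 1.85 and 1.74 normalised CPM in E11.5 UB, 1.49, 1.81, 2.10 and 2.12 in eUB, and 11.5, 0.757, 1.10 and 0.918 in E12.5 UB. E12.5 UB replicate 1, the library with raised NP and SP markers, thus held more Fgf10 than the other 3 libraries together, and the part of those markers in its level was not tested. The eUB and E11.5 UB libraries overlapped, with a log2 fold change of 0.05 (limma adjusted p = 0.714). Against all 4 E12.5 UB libraries the change of Fgf10 in eUB was -0.10 (limma adjusted p = 0.905), and without replicate 1, which left 0.924 ± 0.170 (SD, n = 3), it turned to 0.58 (limma adjusted p = 0.0077).

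Fgf9, which holds nephron progenitors in their state, went the other way: it was higher in all 3 ES-derived groups than in ex-fetu cells of either age. In NP cells the level was 1.56, 2.32, 4.01 and 2.67 normalised CPM at E11.5, 5.29, 5.37, 4.98 and 5.20 at E12.5, and 18.7, 22.3, 20.2 and 23.6 in iNP. No iNP library overlapped an ex-fetu one. Fgf9 in iNP had a log2 fold change of 2.65 ± 0.19 (SE) against E11.5 NP (limma adjusted p = 2.7e-06), with means of 21.2 ± 2.20 and 2.64 ± 1.02 normalised CPM (SD, n = 4), or 8.03-fold, and 1.83 against E12.5 NP (limma adjusted p = 4.1e-06).

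In bud cells Fgf9 was at 5.07, 3.90, 5.51 and 5.33 normalised CPM in E11.5 UB, 8.11, 12.7, 12.8 and 10.96 in E12.5 UB, and 15.4, 16.4, 16.3 and 17 in eUB. The 3 groups did not overlap, with eUB highest. The log2 fold change of Fgf9 in eUB was 1.54 ± 0.11 (SE) against E11.5 UB (limma adjusted p = 2.3e-06), or 3.29-fold by the means. Against E12.5 UB it was 0.53 ± 0.14 (limma adjusted p = 0.0159), and with quantile normalisation that call was lost (adjusted p = 0.0598).

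Stromal cells held the least Fgf9. It was at 0.434, 0.243, 0.397 and 0.234 normalised CPM in E11.5 SP, at 0.217, 0.161, 0.143 and 0.0459 in E12.5 SP, where 1 to 8 reads stood behind a value, and at 1.74, 1.90, 1.70 and 1.99 in iSP. The iSP libraries lay above both ex-fetu groups. The log2 fold change of Fgf9 in iSP against E11.5 SP was 1.10 ± 0.10 (SE, limma adjusted p = 1.4e-05) and the ratio of the means was 5.60, and against E12.5 SP it was higher by 1.31 (limma adjusted p = 6.1e-06). Fgf9 passed the filter in these comparisons only through the iSP libraries.

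Fgf8, a ligand of nephron progenitors and their early derivatives, was highest in E12.5 NP and iNP. Its level was 5.11, 8.46, 7.59 and 11.3 normalised CPM in E11.5 NP, 15.0, 23.2, 21.2 and 25.03 in E12.5 NP, and 17.1, 22.2, 17.1 and 19.8 in iNP. The iNP libraries lay above all E11.5 NP libraries and overlapped those of E12.5 NP. On the log2 scale Fgf8 in iNP rose by 1.17 ± 0.20 (SE) against E11.5 NP (limma adjusted p = 5.9e-04), or 2.35-fold, and its change was -0.12 ± 0.18 against E12.5 NP (limma adjusted p = 0.607).

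The bud libraries differed in Fgf8 by age as titled. It was at 0.258, 2.29, 0.189 and 0.107 normalised CPM in E11.5 UB, 9.46, 6.49, 6.58 and 12.8 in E12.5 UB, and 0.817, 0.603, 0.601 and 0.460 in eUB. The eUB libraries lay below all of E12.5 UB. They lay within the range of E11.5 UB only through its replicate 2 (2.29), and above its other 3 libraries. Against E12.5 UB the log2 fold change of Fgf8 in eUB was -2.56 ± 0.21 (SE, limma adjusted p = 3.1e-05), a 14.2-fold difference of means, and Fgf8 passed the filter there only through the E12.5 UB libraries. Against E11.5 UB too few libraries passed the filter, and an exact two-sided permutation test of the 4 against 4 values gave p = 0.943 with that library in. In SP cells Fgf8 was low, at 0.146 to 0.364 in E11.5 SP and 0.108 to 0.335 in E12.5 SP, and the iSP libraries, at 1.69, 0.931, 2.29 and 0.777 normalised CPM, lay above all of them (exact permutation p = 0.0286 against each age, the smallest that 4 against 4 allow, unadjusted among 45 such tests).

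Fgf2, a ligand made without a classical secretion signal, was highest in ex-fetu stromal cells. Its level was 7.04, 5.42, 6.08 and 7.204 normalised CPM in E11.5 SP, 6.61, 12.9, 11 and 20.2 in E12.5 SP, and 1.93, 1.36, 1.96 and 1.86 in iSP. No iSP library reached an ex-fetu SP library. In iSP the log2 fold change of Fgf2 was -1.42 ± 0.13 (SE) against E11.5 SP (limma adjusted p = 9.5e-06), or 3.62-fold lower by the means, and -2.21 against E12.5 SP (limma adjusted p = 8.3e-05). In NP cells it was at 1.37 to 2.69 in E11.5 NP, 0.928 to 1.93 in E12.5 NP and 0.984 to 1.32 in iNP, a log2 fold change of -0.51 in iNP against E11.5 NP (limma adjusted p = 0.0184), which was lost without E11.5 NP replicate 1 or replicate 3 (adjusted p = 0.0523 and 0.0559). In the bud Fgf2 was at 0.569 to 1.29 in E11.5 UB, 0.379 to 1.23 in E12.5 UB and 0.0429 to 0.177 in eUB, where only 10 reads were counted over 4 libraries, and the eUB libraries overlapped neither ex-fetu group (exact two-sided permutation p = 0.0286 for each). Fgf2 shares 640 exonic bases with Nudt6 on the opposite strand, and whether strand was used in counting is not given in the sources used here, so reads of that stretch cannot be told apart.

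Fgf1 and Fgf7 were near the limit of detection in most groups. Fgf1 was highest in ex-fetu NP, at 0.779, 0.403, 1.19 and 1.47 normalised CPM in E11.5 NP and 1.75, 1.52, 0.634 and 0.334 in E12.5 NP, against 0.317, 0.197, 0.176 and 0.341 in iNP. The iNP libraries lay below all E11.5 NP libraries (exact two-sided permutation p = 0.0286) and overlapped those of E12.5 NP (p = 0.0571). In the UB, eUB and SP groups Fgf1 did not exceed 0.614, the value of E12.5 UB replicate 1, and it was listed at 0 in 4 UB or eUB libraries. Fgf7, a mesenchymal ligand of the IIIb form of Fgfr2, reached 1.14, 1.01, 0.574 and 1.24 in E12.5 SP and 0.773, 1.29, 0.960 and 0.507 in iSP, and no library of another group exceeded 0.676. Its log2 fold change between iSP and E12.5 SP was -0.08 (limma adjusted p = 0.678), and the E11.5 SP libraries, at 0.167 to 0.676, overlapped those of iSP (exact permutation p = 0.0857). In limma with no filter or with all 36 libraries, Fgf7 was higher in iSP than in E11.5 SP (0.41, adjusted p = 0.0448 and 0.0178) and Fgf1 lower in iNP than in E12.5 NP (-0.65, adjusted p = 0.0394 and 0.0022).

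**Figure D1:**
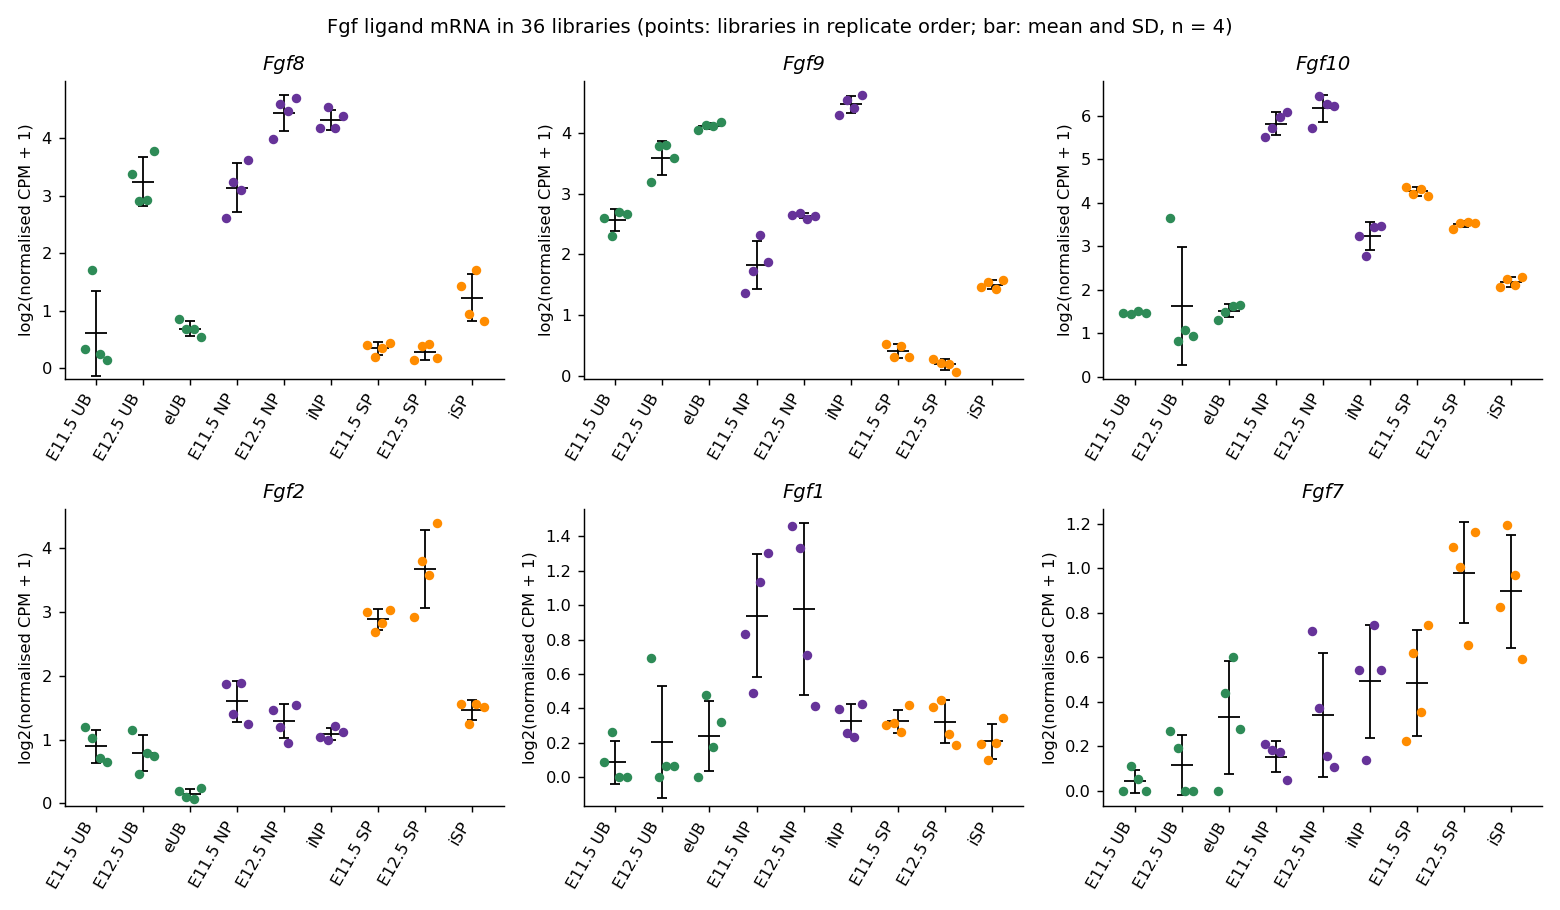
Level of the 6 Fgf ligands in 36 libraries, as log2(normalised CPM + 1), with each point a library in replicate order from left to right and the line and bar the mean and SD of 4 libraries in a group (green UB, purple NP, orange SP). Fgf10 lies lower and Fgf9 higher in iNP than in either ex-fetu NP group, and E12.5 UB replicate 1, at 11.5 normalised CPM of Fgf10, stands off the other 3 libraries of its group.

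The plot of ligand levels shows each gene on its own axis, and levels of different genes were compared only per kb of annotated exon. On that scale the 6 ligands summed to 19.3 ± 4.02 normalised CPM per kb in E11.5 NP, 32.9 ± 6.08 in E12.5 NP and 20.9 ± 1.92 in iNP (SD, n = 4). The sum of these 6 was thus alike in size in iNP and E11.5 NP while its make-up was not. Fgf10 gave 12.2 of it per kb in E11.5 NP and 1.86 in iNP, Fgf8 6.02 and 14.1, and Fgf9 0.567 and 4.56. Ligands outside the members are not in the sum. Of these, Fgf18 was at 13.4 normalised CPM in E11.5 NP and 1.10 in iNP, Fgf20 at 12.3 and 2.004, and Fgf15 at 0.0864 and 14.4. In the bud the sum was 2.13 ± 0.670 in E11.5 UB, 9.88 ± 2.30 in E12.5 UB and 4.51 ± 0.156 in eUB, in stroma 5.35 ± 0.336, 4.68 ± 0.918 and 2.78 ± 0.465 in E11.5 SP, E12.5 SP and iSP. Per kb the leading ligand of eUB was Fgf9, at 3.50, and that of E12.5 UB Fgf8, at 6.53. In iSP Fgf8 led by its mean of 1.05, but Fgf10 was the higher in 2 of the 4 libraries.

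Receptor mRNA was the larger pool per kb of exon, and Fgfr1, the main receptor of kidney mesenchyme, was its leading member in NP and SP cells. Its level was 644, 735, 696 and 810 normalised CPM in E11.5 NP, 865, 807, 1006 and 987 in E12.5 NP, and 483, 396, 509 and 508 in iNP. All iNP libraries were below all ex-fetu NP libraries. In iNP the log2 fold change of Fgfr1 was -0.61 ± 0.11 (SE) against E11.5 NP (limma adjusted p = 0.0011) and -0.95 against E12.5 NP (limma adjusted p = 3.2e-04). In SP cells Fgfr1 was at 525, 548, 495 and 505 at E11.5, 622, 589, 706 and 660 at E12.5, and 363, 384, 375 and 358 in iSP, with a log2 fold change of -0.48 ± 0.07 (SE) in iSP against E11.5 SP (limma adjusted p = 2.2e-04). In the bud it was lower, at 236 to 290 in E11.5 UB, 254 to 392 in E12.5 UB and 228 to 316 in eUB, and the groups overlapped (log2 fold change of eUB against E11.5 UB 0.15, limma adjusted p = 0.288). E12.5 UB replicate 1 gave the 392 and eUB replicate 1, the library with the fewest reads, the 228. Without eUB replicate 1 the change of Fgfr1 was 0.26 and passed the test (limma adjusted p = 0.0042), as it did with quantile normalisation (0.28, adjusted p = 0.0444).

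Fgfr2, the receptor of the branching bud, had its highest levels in the 3 bud groups. It was at 343, 320, 348 and 338 normalised CPM in E11.5 UB, 241, 414, 433 and 389 in E12.5 UB, and 273, 413, 410 and 384 in eUB, and the groups overlapped. The lowest value of E12.5 UB was again that of replicate 1, and the lowest of eUB that of replicate 1. The log2 fold change of Fgfr2 in eUB was 0.11 ± 0.13 (SE) against E11.5 UB (limma adjusted p = 0.463) and 0.02 ± 0.21 against E12.5 UB (limma adjusted p = 0.950; without E12.5 UB replicate 1, -0.17 and 0.353). Without eUB replicate 1 the first of these was 0.25 and passed the test (limma adjusted p = 0.0015).

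Mesenchymal cells held less Fgfr2, and the ES-derived ones least. In NP cells it was at 243, 211, 209 and 219 normalised CPM at E11.5, 215, 187, 228 and 221 at E12.5, and 135, 108, 159 and 155 in iNP. In SP cells it was at 232, 216, 154 and 131 at E11.5, 147, 125, 154 and 136 at E12.5, and 68.1, 74.2, 68.9 and 70.9 in iSP. Neither ES-derived group overlapped its ex-fetu counterparts. The log2 fold change of Fgfr2 against E11.5 cells was -0.67 ± 0.13 (SE) in iNP (limma adjusted p = 0.0011) and -1.33 ± 0.17 in iSP (limma adjusted p = 9.1e-05), which is 1.58-fold and 2.60-fold by the means. Fgfr2 shares 314 exonic bases with Ctbp2 on the same strand, and reads there could count for either gene.

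Fgfr3, a receptor that in ex-fetu cells was most abundant in stroma, was lower in 2 of the 3 ES-derived groups. Its level was 98.9, 114.8, 54.8 and 42.5 normalised CPM in E11.5 SP, 86.0, 21.2, 42.7 and 32.6 in E12.5 SP, and 9.18, 13.6, 12.3 and 11.6 in iSP. The iSP libraries lay below all ex-fetu SP libraries, whose own spread was wide. For Fgfr3 in iSP the log2 fold change was -2.53 ± 0.29 (SE) against E11.5 SP (limma adjusted p = 4.6e-05), or 6.66-fold lower by the means, and -1.71 against E12.5 SP (limma adjusted p = 0.0021). In bud cells it was at 8.82, 11.4, 4.23 and 10.4 in E11.5 UB, 12.9, 5.02, 5.48 and 6.62 in E12.5 UB, and 0.594, 0.568, 0.429 and 0.673 in eUB. The eUB libraries were far below both, with a log2 fold change of -2.56 ± 0.24 (SE) against E11.5 UB (limma adjusted p = 1.4e-05), or 15.4-fold, and -2.36 against E12.5 UB (limma adjusted p = 1.3e-04). Fgfr3 passed the filter here only through the ex-fetu libraries, so with any of them left out it was no longer tested.

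Nephron progenitors did not show that fall of Fgfr3. The level was 46.7, 19.9, 26.3 and 18.7 normalised CPM in E11.5 NP, 46.0, 9.42, 16.5 and 15.3 in E12.5 NP, and 19.4, 18.8, 24.8 and 20.4 in iNP. The groups overlapped, with log2 fold changes of iNP of -0.32 ± 0.25 (SE) against E11.5 NP (limma adjusted p = 0.291) and 0.17 ± 0.38 against E12.5 NP (limma adjusted p = 0.746). Without E12.5 NP replicate 1 the second was 0.59 and passed the test (limma adjusted p = 0.0407). In each of the E12.5 groups replicate 1 gave the highest Fgfr3 value. Fgfr3 shares 998 exonic bases, 13.9% of its exons, with G630022F23Rik on the opposite strand, with the same limit as for Fgf2.

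Fgfrl1, the receptor without a kinase, changed by at most 0.42 in size between ES-derived and ex-fetu cells. It was at 64.2, 74.1, 58.4 and 64.4 normalised CPM in E11.5 UB, 61.6, 53.7, 56.9 and 60.6 in E12.5 UB, and 84.3, 78.1, 74.8 and 75.5 in eUB. The eUB libraries were above all ex-fetu UB libraries, with a log2 fold change of 0.26 ± 0.08 (SE) against E11.5 UB (limma adjusted p = 0.0230) and 0.42 against E12.5 UB (limma adjusted p = 0.0024). The first of these calls was lost with upper-quartile scaling (adjusted p = 0.103), with edgeR on the recovered reads (adjusted p = 0.0516) and without eUB replicate 2 or E11.5 UB replicate 1, 3 or 4 (adjusted p between 0.0535 and 0.0635). NP libraries ranged from 85.5 to 108 over all 3 NP groups, and iNP overlapped both ages. In iSP Fgfrl1 was at 84.4 to 89.4 against at least 109 in every E11.5 SP library (log2 fold change -0.35, limma adjusted p = 8.5e-04) and 80.3 to 104 in E12.5 SP (log2 fold change -0.11, limma adjusted p = 0.357; without E12.5 SP replicate 1, -0.18 and 0.0321).

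**Figure D2:**
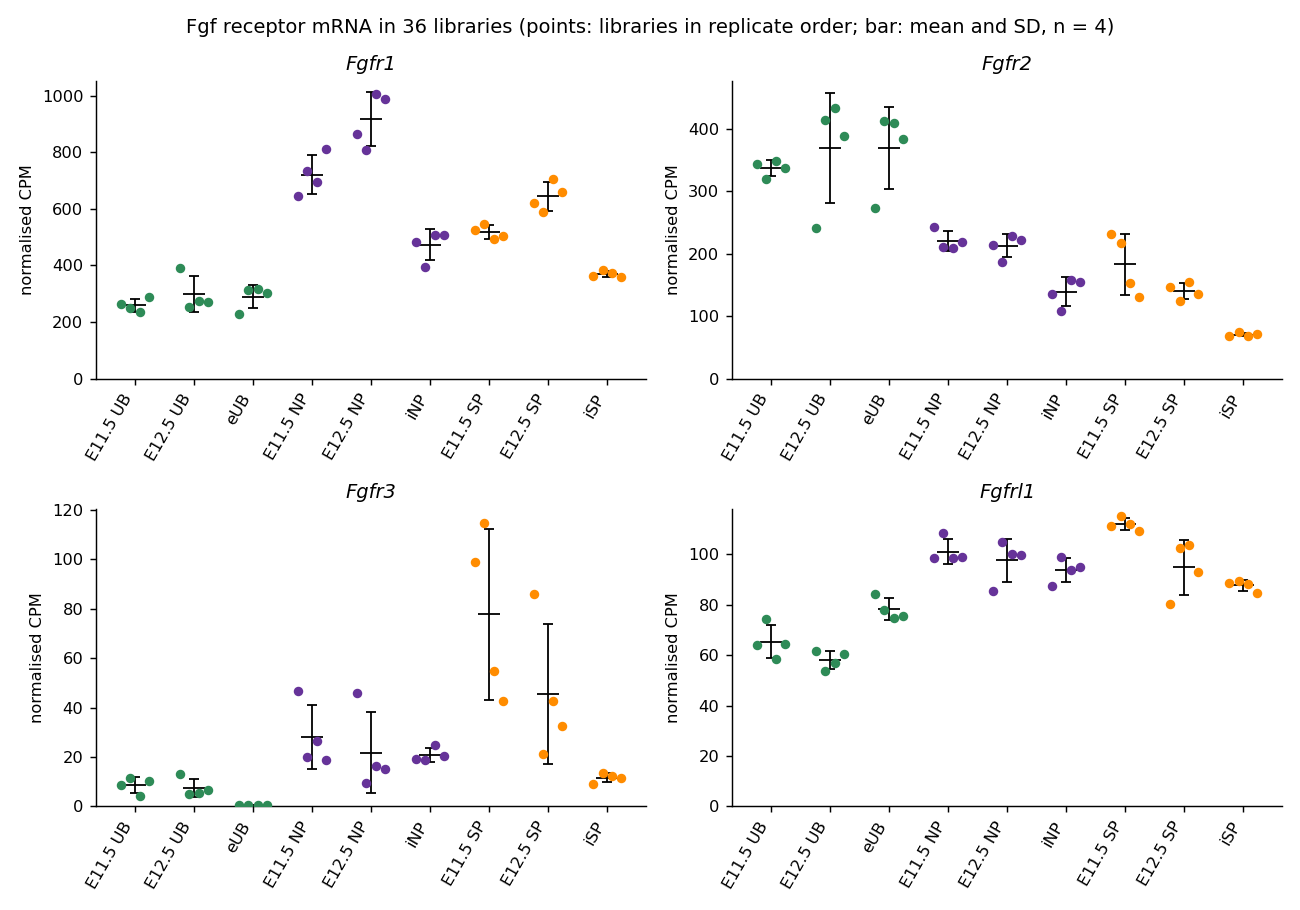
Level of the 4 Fgf receptors in 36 libraries in normalised CPM, with each point a library in replicate order and the line and bar the mean and SD of 4 libraries. Fgfr2 is highest in the 3 bud groups, and Fgfr3 is at 0.429 to 0.673 in all 4 eUB libraries and at 9.18 to 13.6 in iSP, below every ex-fetu library of the same cell type.

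The balance between the kinase receptors Fgfr1, Fgfr2 and Fgfr3, shown in the plot of receptor shares, set every bud library apart from every NP and SP library. Per kb of exon, Fgfr2 made up 54.3% ± 2.72 of the sum of Fgfr1, Fgfr2 and Fgfr3 in E11.5 UB, 53.2% ± 11.5 in E12.5 UB and 54.7% ± 1.05 in eUB (SD, n = 4). E12.5 UB replicate 1 was at 36.0%, and the other 3 libraries at 59.0% ± 1.62 (SD, n = 3). In NP cells the share of Fgfr2 was 21.8% ± 2.03 at E11.5, 17.7% ± 0.338 at E12.5 and 20.9% ± 1.05 in iNP, and in SP cells 21.6% ± 2.98, 15.98% ± 0.277 and 14.9% ± 0.389 in E11.5 SP, E12.5 SP and iSP. The share of Fgfr2 in iNP (19.7% to 21.8%) overlapped that of the E11.5 NP libraries (20.1% to 24.7%) although the sum of the 3 receptors was lower, at 64.4 ± 7.87 against 98.3 ± 5.22 normalised CPM per kb. In iSP that sum was 45.9 ± 1.59 against 81.1 ± 11.6 in E11.5 SP, and in eUB 65.3 ± 10.6 against 60.2 ± 2.66 in E11.5 UB. Fgfr3 made up 12.96% ± 4.12 in E11.5 SP and 0.125% ± 0.0360 in eUB, and these shares are given without a test. Fgfr4, a kinase receptor outside the members, was left out of these shares. Its mean was 77.2 normalised CPM in E11.5 UB and 62.1 in eUB, against 5.04 in E11.5 SP and 1.79 in iSP.

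**Figure D3:**
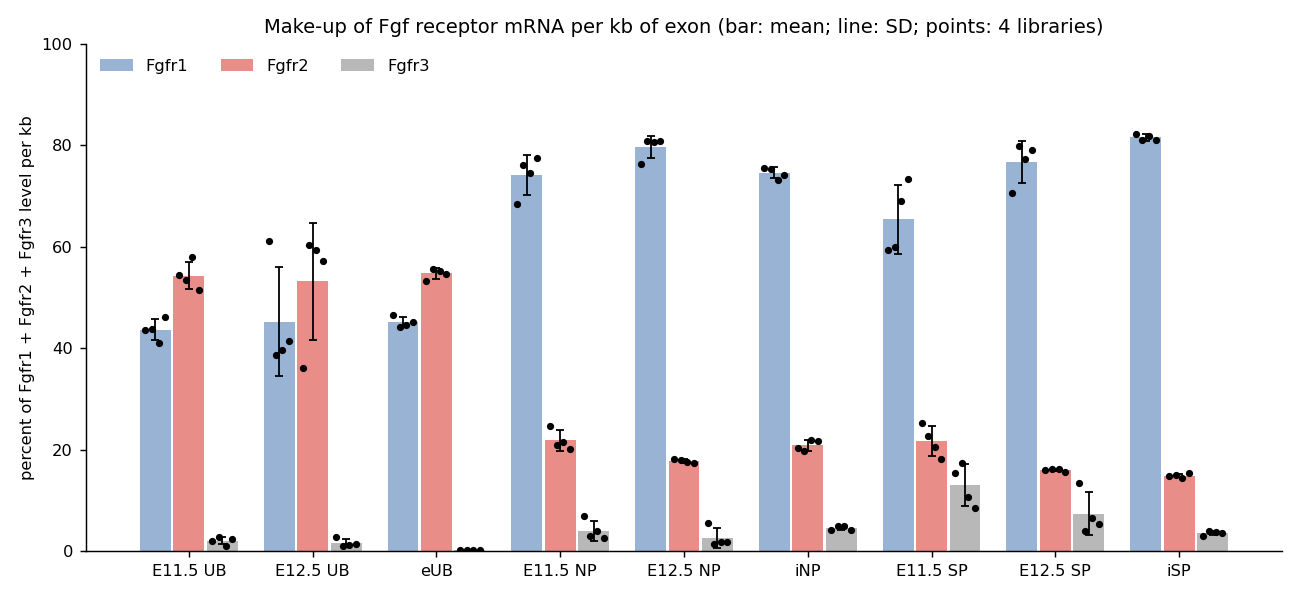
Percent of the summed Fgfr1, Fgfr2 and Fgfr3 level per kb of exon that each receptor makes up, with the bar the mean, the line the SD and the points the 4 libraries of a group. Fgfr2 is at 51.5% to 60.3% in all bud libraries but E12.5 UB replicate 1 (36.0%) and at 14.4% to 25.1% in all NP and SP libraries.

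Counted over the members, the comparison of eUB with E11.5 UB tested 6 and called 3, of which 2 were higher and 1 lower, beside 60.5% of all 13956 genes tested (32.1% higher, 28.5% lower). For iNP against E11.5 NP 6 of 8 members were called, 2 higher and 4 lower, beside 64.7% of all genes (35.5% and 29.2%), and for iSP against E11.5 SP 7 of 7, 1 higher and 6 lower, beside 67.6% (35.5% and 32.1%). The comparisons held few members. Fgfr3 in eUB, at both ages, Fgf8 in eUB against E12.5 UB and Fgf9 in iSP, at both ages, passed the filter only through the group where they were high. Without them the counts against E11.5 cells were 2 of 5 in eUB, both higher, and 6 of 6 in iSP, all lower, and those against E12.5 cells 2 of 5 and 5 of 7. The members tested against E11.5 cells changed by a median size of 0.20 on the log2 scale in eUB (0.15 without Fgfr3), 0.64 in iNP and 1.33 in iSP (1.37 without Fgf9), against 0.41, 0.53 and 0.54 over all genes tested. With a library left out, the count in eUB ranged from 1 (without E11.5 UB replicate 1, 3 or 4) to 5 (without eUB replicate 1). Against the E12.5 cells, which share the ES-derived libraries with these comparisons, 4 of 7 members were called in eUB (44.4% of all genes), 4 of 8 in iNP (44.3%) and 6 of 8 in iSP (62.1%). Groups of libraries without any overlap, as named above for single members, were common among all genes tested: 56.1%, 62.4% and 62.2% for eUB, iNP and iSP against E11.5 cells and 42.6%, 44.0% and 58.0% against E12.5 cells. The eUB count was 2 without E12.5 UB replicate 2, 3 or 4, each of which took Fgf8 and Fgfr3 below the filter.

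**Figure D4:**
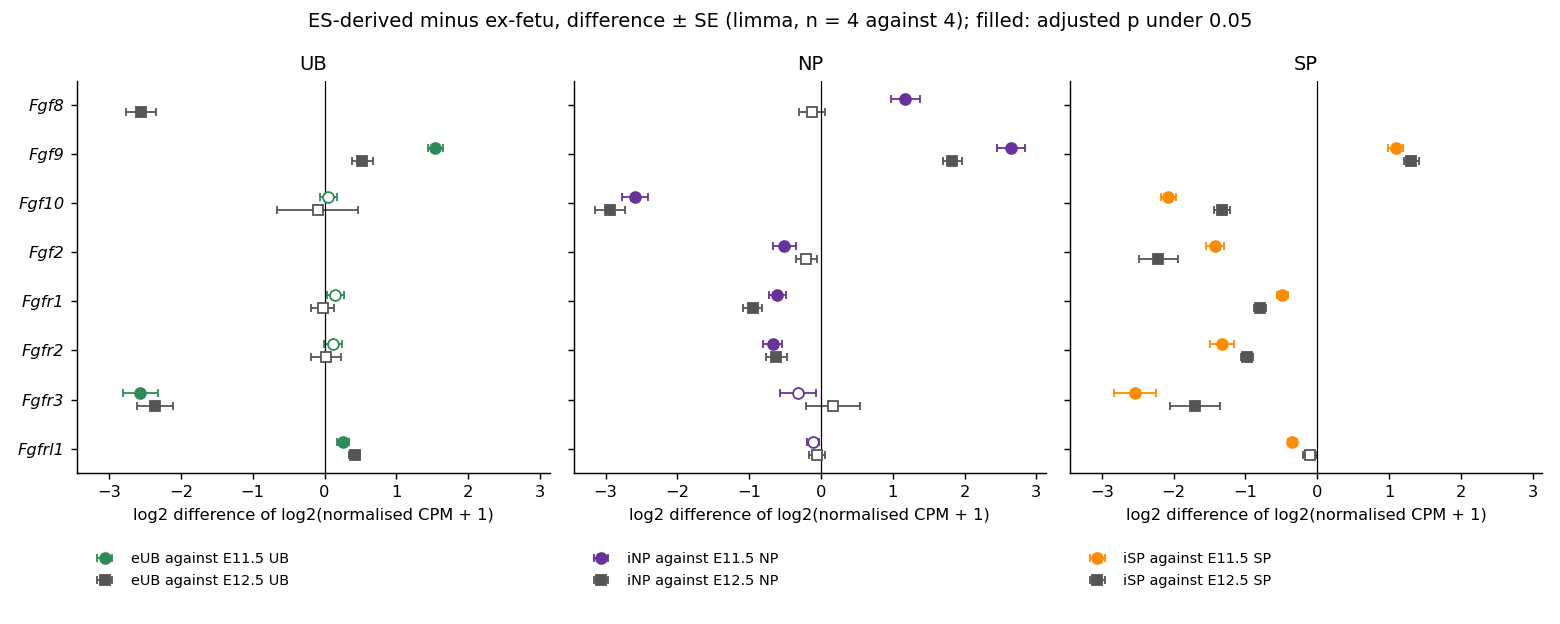
Difference of each member between ES-derived and ex-fetu cells on the log2(normalised CPM + 1) scale with its SE (limma, 4 against 4 libraries), against E11.5 (coloured circles) and E12.5 (grey squares), filled where the adjusted p is under 0.05. Fgf9 lies right of 0 in all 3 cell types at both ages, and Fgf10, Fgfr1 and Fgfr2 lie left of 0 in NP and SP but not called in UB.

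Whether these changes differed between cell types was tested on 16 libraries at a time as the difference of the ES-derived minus E11.5 change, and the plot of changes shows the values compared. Between UB and NP 7 of 8 members differed (47.1% of all genes did), between UB and SP 6 of 7 (47.4%) and between NP and SP 4 of 8 (29.3%). The change of Fgf10 was higher in UB than in NP by 2.64 and than in SP by 2.13 on the log2 scale (limma adjusted p = 7.0e-08 and 7.6e-09), while the difference of -0.51 between NP and SP was not called (limma adjusted p = 0.0881) but passed with quantile normalisation and without E11.5 NP replicate 1 (adjusted p = 0.0334 and 0.0401). For Fgfr2 the change was also higher in UB, with differences of 0.79 against NP (limma adjusted p = 0.0024) and 1.44 against SP (limma adjusted p = 6.2e-05). That of 0.65 between NP and SP (limma adjusted p = 0.0361) was lost without any of 11 libraries (adjusted p up to 0.0724) and with the replicate block (adjusted p = 0.0560). The change of Fgfr3 was lower in UB than in NP by 2.25 (limma adjusted p = 1.2e-04) and higher in NP than in SP by 2.22 (limma adjusted p = 6.3e-04), while UB and SP differed by -0.03 (limma adjusted p = 0.960). That last value depended on the scale, since Fgfr3 in eUB was below 1: it was -1.03 with a pseudocount of 0.1 and -1.23 with edgeR on the recovered reads (adjusted p = 0.0717 and 0.0739). The size of the UB and NP difference did too, at -3.32 and -3.50 (adjusted p = 8.5e-06 and 1.8e-05).

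For the ligands at low levels these differences depended on the scale. The change of Fgf9 in UB minus that in NP was -1.10 on the log2(value + 1) scale (limma adjusted p = 8.6e-04), and edgeR on the recovered reads gave the same direction (-1.29 for UB minus NP, adjusted p = 9.7e-04). Against SP the difference of UB was 0.45 (limma adjusted p = 0.0202), but it was -0.50 with a pseudocount of 0.1 (adjusted p = 0.112) and -0.83 with edgeR (adjusted p = 0.0132), so no direction is given. The difference of 1.55 between NP and SP (limma adjusted p = 5.5e-05) was lost with a pseudocount of 0.1 (0.82, adjusted p = 0.0765) and with edgeR (0.49, adjusted p = 0.364). For Fgf2, UB minus SP was 0.67 (limma adjusted p = 0.0074), -0.42 with a pseudocount of 0.1 (adjusted p = 0.388) and -1.18 with edgeR (adjusted p = 0.0559), again with no stable direction. UB minus NP for Fgf2, the member not called above, was -0.24 (limma adjusted p = 0.378), -1.44 with that pseudocount (adjusted p = 0.0108) and -2.12 with edgeR (adjusted p = 0.0052). Fgf8 differed between UB and NP by -1.09 (limma adjusted p = 0.0312), a call lost with edgeR (adjusted p = 0.168) and with 0.1 as the pseudocount (adjusted p = 0.471). It was lost too with quantile normalisation (-0.75, adjusted p = 0.1355). Leaving out eUB replicate 4, iNP replicate 2 or E11.5 NP replicate 1 or 3 also ended it (adjusted p 0.0511 to 0.0689). Fgf8 passed the filter there through the E11.5 NP and iNP libraries, where it was high.

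Within the embryo, Fgf8 and Fgf9 were the members called between the ages in UB and NP, and Fgf10 in SP. As titled, E12.5 UB held more Fgf8 than E11.5 UB, by 2.64 on the log2 scale (limma adjusted p = 0.0014), with means of 8.82 ± 2.96 and 0.711 ± 1.06 normalised CPM (SD, n = 4), and more Fgf9, by 1.02 (limma adjusted p = 0.0026), and no other member of 7 was called (26.5% of all genes were). If the source labels and not the titles were right, both directions would turn around. Fgf10 changed by 0.15 (limma adjusted p = 0.868), but by -0.53 without E12.5 UB replicate 1 (limma adjusted p = 0.0128), when Fgfr2 was called too (0.29, adjusted p = 0.0011).

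Nephron progenitors showed the same pair of ligands higher at E12.5, Fgf8 by 1.30 (limma adjusted p = 0.0151) and Fgf9 by 0.81 (limma adjusted p = 0.0368), 2 of 9 members beside 6.34% of all genes. Fgf10, at 0.35 (adjusted p = 0.280), passed the test without E12.5 NP replicate 1 (0.50, limma adjusted p = 0.0455). Each of the calls of Fgf8 and Fgf9 was lost when certain libraries were left out. Fgf8 lost it without E12.5 NP replicate 3 or 4 or E11.5 NP replicate 2 or 3 (adjusted p 0.0513 to 0.0647). Fgf9 lost it without E12.5 NP replicate 3 or 4 or E11.5 NP replicate 1, 2 or 4 (adjusted p 0.0711 to 0.115), and with edgeR on the recovered reads (adjusted p = 0.0539). It was also lost in limma with no filter (adjusted p = 0.0662), quantile normalisation (adjusted p = 0.0527) or the replicate block (adjusted p = 0.0524). In stroma 1 of 6 members was called, beside 8.52% of all genes. It was Fgf10, lower at E12.5 by 0.75 in size (log2 fold change -0.75, limma adjusted p = 0.0078), a call lost in a fit of all 36 libraries (adjusted p = 0.112). Fgf9, below the filter in stroma, went the other way than in UB and NP: its 4 values at E12.5 lay below the 4 at E11.5 (exact two-sided permutation p = 0.0286), on 16 and 42 reads in all, and limma with no filter did not call it (adjusted p = 0.137). Fgf2 rose by 1.04 and Fgfr3 changed by -1.19 without E12.5 SP replicate 1 (limma adjusted p = 0.0094 and 0.0488), against 0.79 and -0.83 with it (adjusted p = 0.108 and 0.275).

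Cell types of the same source were compared over the 7 or 8 members that passed the filter in each case. At E11.5, 8 of 8 were called between UB and NP (60.2% of all genes), 7 of 7 between UB and SP (53.6%) and 6 of 8 between NP and SP (43.1%). Relative to NP cells of that age, UB cells held less Fgf10 by 4.35 on the log2 scale (log2 fold change -4.35, limma adjusted p = 2.6e-11), less Fgfr1 (-1.47, adjusted p = 1.4e-08) and Fgf8 (-2.53, adjusted p = 2.4e-05), and more Fgfr2 (0.61, adjusted p = 3.3e-06) and Fgf9 (0.74, adjusted p = 0.0043). Relative to SP they held more Fgf9 (2.16, limma adjusted p = 3.3e-07) and less Fgf2 (-1.99, adjusted p = 2.1e-06) and Fgfr3 (-2.98, adjusted p = 4.3e-05). NP cells differed from SP cells by more Fgf8 (2.79, limma adjusted p = 5.0e-06) and Fgf10 (1.56, adjusted p = 1.5e-05) and less Fgf2 (-1.29, adjusted p = 2.9e-04). Fgf9 in the comparisons of UB and NP with SP, and Fgf8 in that of NP with SP, passed the filter only through the UB or NP libraries, where they were high. Without them 6 of 6 and 4 of 6 were called against SP.

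At E12.5 the counts were 6 of 8 for UB and NP (32.7% of all genes), 8 of 8 for UB and SP (46.4%) and 6 of 8 for NP and SP (34.8%), and Fgf8 and Fgf9 passed the filter against SP only through the UB or NP libraries (6 of 6 and 4 of 6 without them). In UB against SP the count was 5 without E12.5 UB replicate 2, 3 or 4, which took Fgf8 and Fgf9 below the filter and lost the call of Fgf10. That of Fgf10, -1.89 (limma adjusted p = 0.0214), was -2.57 without E12.5 UB replicate 1 (adjusted p = 7.4e-07), and it was lost with edgeR on the recovered reads (-1.55, adjusted p = 0.163) and without E12.5 SP replicate 3 (adjusted p = 0.0520). Between UB and NP, Fgfr3 differed by -1.27 (limma adjusted p = 0.0562), and by -1.54 without E12.5 UB replicate 1 (adjusted p = 0.0250) and -1.57 without E12.5 NP replicate 2 (adjusted p = 0.0265). It also passed the test with quantile or upper-quartile scaling, with DESeq2 and in a fit of all 36 libraries (adjusted p 0.0083 to 0.0489). For E12.5 NP and SP, libraries with the same number deviated together. With the replicate number as a block, Fgfr3, at -1.08 and an adjusted p of 0.129 without it, was also lower in NP (limma adjusted p = 7.7e-05), so that 7 of 8 members were called, and 7961 genes in all in place of 4789. Fgfr3 was at -1.51 without E12.5 NP replicate 1 (limma adjusted p = 0.0228).

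Among ES-derived cells 7 of 7 members were called between eUB and iNP (52.2% of all genes), 7 of 7 between eUB and iSP (64.7%) and 7 of 8 between iNP and iSP (30.7%). Fgfr3 in both comparisons of eUB, Fgf8 in that with iNP and Fgf2 in that with iSP passed the filter only through the iNP or iSP libraries, and without them 5 of 5 were called in each. The eUB cells were set off by Fgfr2, higher than in iNP by 1.40 (limma adjusted p = 9.3e-05) and than in iSP by 2.36 (adjusted p = 1.4e-07), and by low Fgfr3 (-3.80 and -3.01, adjusted p = 9.8e-09 and 2.0e-08). Between the mesenchymal cell types, iNP held more Fgf8 (3.09, limma adjusted p = 3.1e-06), Fgf9 (2.97, adjusted p = 2.7e-07) and Fgf10 (1.05, adjusted p = 8.2e-04) than iSP. Fgfr3 was higher in iNP than in iSP by 0.79 (limma adjusted p = 0.0015, and 0.134 in a fit of all 36 libraries) but lower in NP than in SP at E11.5 (-1.43, adjusted p = 0.0102), and the test of that difference is the 2.22 given above. The calls of Fgf9 and Fgfrl1 between eUB and iNP, those of Fgfrl1 between eUB and iSP and those of Fgf2 and Fgfr1 between iNP and iSP were lost without at least 1 library. With the replicate block, Fgfr1 between iNP and iSP and Fgfrl1 between eUB and iNP were lost too (limma adjusted p = 0.067 and 0.1002). A fit of all 36 libraries lost Fgf10 and Fgfrl1 between eUB and iSP (limma adjusted p = 0.088 and 0.081) and Fgf2 between iNP and iSP (adjusted p = 0.1725). Fgfrl1 between eUB and iSP was also lost with edgeR (adjusted p = 0.0636) and quantile normalisation (limma adjusted p = 0.0515). The count for eUB and iNP was 4 without iNP replicate 3 and 3 without replicate 4, which took Fgf8 and Fgfr3 below the filter. That for eUB and iSP was 4 without any of the 4 iSP libraries, which took Fgf2 and Fgfr3 below it and lost the call of Fgfrl1.

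The wider pathway was read from fixed lists, beginning with 15 transcriptional targets and feedback inhibitors of Fgf signalling, which other receptor kinases also drive. Their median log2 fold change was 0.11 in eUB against E11.5 UB (5 higher and 2 lower of 14 tested), 0.55 in iNP (8 higher and 1 lower of 15) and -0.39 in iSP (3 higher and 8 lower of 15). Over all genes tested the medians were 0.02, 0.07 and 0.04, and 60.5%, 64.7% and 67.6% were called, as given above by direction. These shares of all genes are the background of each list that follows. Egr1, an immediate early gene that also responds to handling of cells, was higher in eUB by 2.31 (1636 ± 367 against 328 ± 74.8 normalised CPM, SD, n = 4, limma adjusted p = 8.9e-06) and in iNP by 2.21 (306 against 65.6, limma adjusted p = 2.6e-05). Dusp6, a phosphatase of the MAP kinase ERK, was higher in iNP by 1.59 (116 ± 2.86 against 38.1 ± 6.26, limma adjusted p = 2.8e-06), and Spry4, a Sprouty inhibitor, by 1.49 (limma adjusted p = 1.9e-05). The 4 Sprouty genes, a subgroup looked at after the values were seen, were all higher in iNP than in E11.5 NP (by 0.86 to 1.49). Against E12.5 NP only Spry3 was (0.82, limma adjusted p = 0.0037). In iSP the phosphatase genes Dusp5 and Dusp4 were lower by more than any other of the list (-2.56 and -2.32, limma adjusted p = 9.5e-08 and 4.9e-08), with Dusp5 at 24.02 ± 2.52 against 146 ± 11.8, and Il17rd, a membrane inhibitor of the pathway, was higher by 1.86 (174 against 49.9, limma adjusted p = 6.6e-05). In eUB Spry2 was higher (0.93, limma adjusted p = 4.0e-06) and Spred3 lower (-0.68, limma adjusted p = 0.0019).

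**Figure D5:**
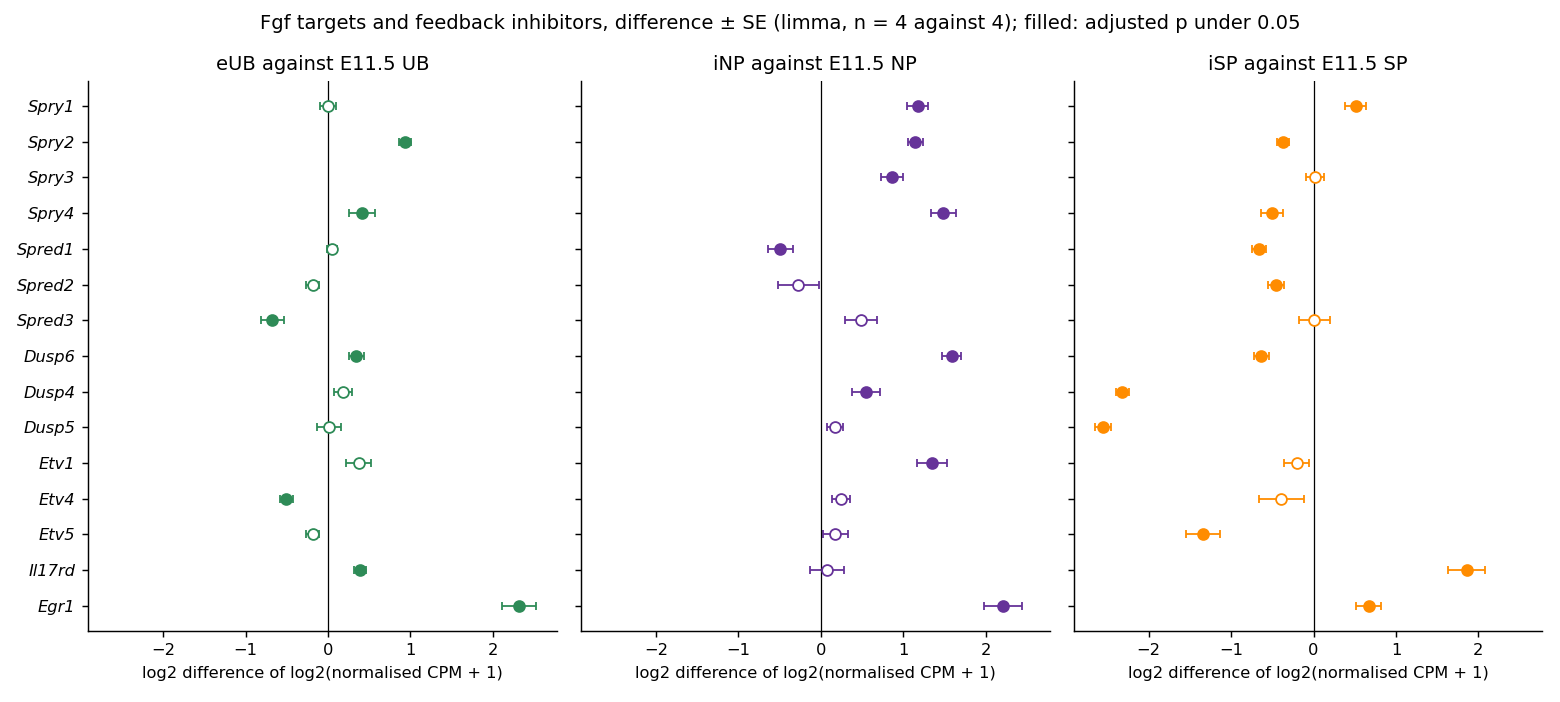
Difference of 15 Fgf targets and feedback inhibitors between ES-derived and E11.5 cells on the log2(normalised CPM + 1) scale with its SE (limma, 4 against 4 libraries), filled where the adjusted p is under 0.05. The 4 Sprouty genes lie right of 0 in iNP, and Dusp4 and Dusp5 lie at -2.32 and -2.56 in iSP.

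The plot of targets shows that the list did not move as a block in any cell type. Targets of replicate 1 stood apart in E12.5 NP too: Spry1 was at 219 normalised CPM there against 85.3 to 89.4 in the other 3 libraries, and Egr1 at 290 against 46.4 to 86.2. Against the E12.5 groups the list counted 6 higher and 5 lower of 14 in eUB, 3 and 0 of 15 in iNP and 3 and 9 of 15 in iSP, beside 44.4%, 44.3% and 62.1% of all genes called.

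Among the other secreted ligands, Fgf18 was lower in all 3 ES-derived groups: 4.998 against 10.8 normalised CPM in eUB (log2 fold change -0.97, limma adjusted p = 2.3e-04), 1.10 against 13.4 in iNP (-2.67, adjusted p = 2.6e-05) and 0.286 against 15.3 in iSP (-3.67, adjusted p = 1.9e-08). Fgf20, the partner of Fgf9 in nephron progenitors, was at 2.004 ± 0.483 in iNP against 12.3 ± 5.80 in E11.5 NP (-1.99, limma adjusted p = 0.0011), the opposite direction to Fgf9. Fgf15 was at 14.4 in iNP against 0.0864 in E11.5 NP, a level under that of 3 reads (3.83, limma adjusted p = 2.2e-08). In iSP Fgf5 (-2.08, adjusted p = 1.4e-05) and Fgf3 (-1.54, adjusted p = 1.2e-06) were lower, and in eUB Fgf17 was higher (1.04, adjusted p = 1.9e-04). In all, 1 of the list was higher and 1 lower of 4 tested in eUB, 1 and 4 of 5 in iNP and 0 and 3 of 3 in iSP, with medians of -0.05, -1.64 and -2.08. Of all genes 60.5%, 64.7% and 67.6% were called. In iNP Fgf5, Fgf15 and Fgf21, and in iSP Fgf3, Fgf5 and Fgf18, passed the filter only through the group where they were high. The counts and medians are thus no sign of a shared direction.

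Of the receptors and co-receptors outside the members, 2 were higher and 1 lower of 4 in eUB, 0 and 3 of 4 in iNP and 0 and 4 of 4 in iSP (all genes: 60.5%, 64.7% and 67.6%). Flrt1, a membrane protein that binds Fgf receptors, was lower in iNP by 4.05 in size (log2 fold change -4.05, 1.49 against 39.1 normalised CPM, limma adjusted p = 1.1e-06) and in iSP (-3.29, adjusted p = 4.3e-05), together with Flrt3 (-0.50 in iNP and -1.44 in iSP, adjusted p = 0.0063 and 1.1e-06), which was higher in eUB (0.81, adjusted p = 3.2e-05). Flrt2 was higher in eUB (0.47, limma adjusted p = 0.0033) and lower in iNP (-0.79, adjusted p = 0.0414). Fgfr4, the remaining kinase receptor, was at 62.1 in eUB against 77.2 in E11.5 UB (-0.31, limma adjusted p = 0.0093) and at 1.79 in iSP against 5.04 in E11.5 SP (-1.07, adjusted p = 7.3e-04). The Fgf homologous factors, which stay in the cell and bind no Fgf receptor, had Fgf11 higher in eUB, iNP and iSP by 0.75, 2.74 and 2.79 (limma adjusted p = 3.7e-04, 2.5e-06 and 1.8e-07) and Fgf13 lower by 1.77, 0.38 and 0.96 in size (-1.77, -0.38 and -0.96, adjusted p = 6.9e-06, 0.0327 and 0.0102). Fgf12 was higher in eUB (0.91, limma adjusted p = 3.0e-05).

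The relay from receptor to MAP kinase had 3 members higher and 6 lower of 18 in eUB, 4 and 11 in iNP and 3 and 13 in iSP, with medians of -0.17, -0.39 and -0.43. Of all genes 28.5%, 29.2% and 32.1% were lower and 32.1%, 35.5% and 35.5% higher. Braf, a kinase of the relay, was lower in iNP (-1.62, 47.4 against 139 normalised CPM, limma adjusted p = 5.0e-04) and in iSP (-1.60, 49.4 against 153, adjusted p = 9.5e-06). The exchange factor genes Sos1 and Sos2 in iNP (-1.36 and -1.43, limma adjusted p = 7.1e-04 and 8.1e-05) and Sos2 in iSP (-0.97, adjusted p = 9.7e-04) were lower too. In eUB the adaptor gene Gab1 was higher (1.36, limma adjusted p = 2.0e-07), Map2k1 was higher (0.75, adjusted p = 6.5e-05) and Hras lower (-0.96, adjusted p = 1.8e-04). Heparan sulphate genes, whose products hold Fgf ligands at the cell surface, had 7 higher and 8 lower of 22 in eUB, 7 and 7 of 22 in iNP and 6 and 9 of 23 in iSP, with medians of -0.03, 0.17 and -0.27. The called share was near that of all genes (60.5%, 64.7% and 67.6%). The glypican gene Gpc5 fell in eUB (-1.91, limma adjusted p = 1.1e-05) and rose in iSP (2.84, adjusted p = 4.4e-06), and Gpc4 rose in eUB (1.74, adjusted p = 7.3e-06) and fell in iSP (-2.23, adjusted p = 2.2e-05). Sulf1, a sulphatase gene, was higher in eUB and lower in iSP (1.63 and -1.68, limma adjusted p = 4.0e-04 and 1.2e-06), and in iNP Sdc4 and Sulf2 were lower (-1.33 and -1.20, adjusted p = 1.4e-05 and 6.0e-05) and Gpc3 higher (1.05, adjusted p = 3.5e-05).

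The splice regulators bear on the exon shown above. Esrp1, an epithelial factor that favours the IIIb exon of Fgfr2, was at 354 ± 6.38 normalised CPM in E11.5 UB, 281 ± 71.9 in E12.5 UB and 202 ± 8.25 in eUB, and at most 9.02 in any NP or SP library. The eUB level was below that of E11.5 UB (log2 fold change -0.81, limma adjusted p = 3.2e-06), and E12.5 UB replicate 1 was at 173 against 307 to 323 in the other 3 libraries. In iSP Esrp1 was lower too (-1.87, 0.435 against 4.67, limma adjusted p = 3.6e-04), where it passed the filter only through the E11.5 SP libraries. Ptbp1, a general splicing repressor, was lower in all 3 ES-derived groups (-0.40 in eUB, -0.58 in iNP and -0.51 in iSP, limma adjusted p = 0.0010, 0.0023 and 0.0017), and Rbfox2 was higher in eUB and iSP (0.19 and 0.24, adjusted p = 0.0389 and 0.0280). Over the list, 1 was higher and 2 lower of 4 in eUB, 0 and 1 of 3 in iNP and 1 and 2 of 3 in iSP, beside the same 60.5%, 64.7% and 67.6% of all genes.

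Likeness of pattern was described by Pearson's r of log2(value + 1) over the 36 libraries, among 16001 genes, with no test, since libraries of a group are alike and 9 groups stand behind the 36 points. Fgf10 was closest to Foxd2os (r = 0.972), Foxd2 (0.972) and Snap91 (0.971), and Foxd2 fell from 187 normalised CPM in E11.5 NP to 25.2 in iNP much as Fgf10 did. Fgf9 was closest to Snx10 (0.946), Creld1 (0.933) and Pon2 (0.924), Fgf8 to Cdh4 (0.926), Uncx (0.897) and Psen2 (0.894), and Fgf2 to Myocd (0.952), Emilin3 (0.944) and Myl9 (0.943). The receptors had as neighbours Cacna2d1 (0.953), Tbc1d4 (0.950) and Syt7 (0.946) for Fgfr1, Fam20c (0.964), Map3k5 (0.954) and Mfsd6 (0.954) for Fgfr2, Dab2 (0.922), Asb1 (0.915) and Ogfr (0.909) for Fgfr3, and Abcg2 (0.916), Kcnk2 (0.901) and Tril (0.892) for Fgfrl1. Fgf1 and Fgf7, both near the limit of detection, were closest to Siglecg (0.856), Gm20485 (0.849) and H2-Aa (0.840), and to Ptpdc1 (0.835), Kcnd2 (0.834) and Pcdhga12 (0.832). Among the members themselves the closest pair was Fgf10 and Fgfr1 (r = 0.94), and the most opposed was Fgf2 and Fgf9 (-0.855).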

How the data were processed

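RNA of 36 sorted samples was sequenced as stranded mRNA libraries. Reads were trimmed with Cutadapt and aligned with STAR by the authors (the counting program, its use of strand and the limits of their filter are not given in the sources used here), and the genome is written as GRCh38 although the gene identifiers are mouse. The deposited signal values are CPM that the authors normalised with edgeR; a second table, with their fold changes and p-values, was not used. Of 22761 identifiers, 22642 were found in GENCODE vM21 (GRCm38), which gave exon lengths and positions. Recovered reads were whole within 0.001 of a read in 100% of values, and replicate libraries differed by more than counting noise (chi-square per degree of freedom at least 4.14 over 54 pairs), so none was taken as a repeat.

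The filter kept a gene whose value reached 1 in 4 or more libraries of a comparison. limma 3.58.1 (eBayes with trend, R 4.3.3) was then run on log2(value + 1) over its 8 libraries, or 16 for differences of changes, with Benjamini-Hochberg adjustment over all genes tested and 0.05 as the threshold. Members outside the filter were tested by exact two-sided permutation, also in R, in 45 tests, without adjustment. With 4 libraries a group, p-values measure the spread between these pools. The steps were tested on simulated data. Replicate numbers come from the titles; same-numbered libraries deviated together in every pair (r 0.543 to 0.700) only for E12.5 NP and SP, so there the block fit is printed beside the result. Alternatives were other filters, a pseudocount of 0.1, quantile and upper-quartile scaling, all 36 libraries in 1 fit, the replicate block, each library left out, and edgeR 4.0.16 and DESeq2 1.42.0 on the recovered reads. The text names all members, the 3 genes most like each, and the 3 called genes with the largest change per list and comparison with E11.5 cells; beyond that rule, other targets and marker genes were named after their values were seen. The members and lists were chosen with earlier results of these data known. A gene that the naming rule would have named and a sequence are not reported here.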

Additional observations from a re-analysis of the deposited data

Results flagged for a closer look

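In 8 of 90 sets of 4 libraries, a library of a member lay further from the others than Dixon's 95% limit, and chance alone gives about 1 in 20. E12.5 UB replicate 1 was such a library for Fgf1 (0.614 normalised CPM), Fgf10 (11.5) and Fgfr1 (392), and it is the library with raised NP and SP markers. The others were E11.5 UB replicate 2 for Fgf8 (2.29) and replicate 3 for Fgf10 (1.85), eUB replicate 1 for Fgfr1 (228), iSP replicate 2 for Fgf2 (1.36) and E11.5 NP replicate 2 for Fgfrl1 (108).

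The ES-derived minus E11.5 change differed between cell types in 17 of 23 tests of members by the interaction term in limma, and these tests share libraries. Of all genes, 47.1% were called for UB minus NP, 47.4% for UB minus SP and 29.3% for NP minus SP. For UB minus NP the differences on the log2 scale were 0.37 for Fgfrl1, 2.64 for Fgf10, -1.10 for Fgf9, -1.09 for Fgf8, 0.79 for Fgfr2, 0.76 for Fgfr1 and -2.25 for Fgfr3. For UB minus SP they were 0.61 for Fgfrl1, 2.13 for Fgf10, 0.45 for Fgf9, 1.44 for Fgfr2, 0.63 for Fgfr1 and 0.67 for Fgf2, of which those of Fgf9 and Fgf2 turned around on other scales. The UB minus NP call of Fgfrl1 was lost with quantile (0.20, adjusted p = 0.249) and upper-quartile scaling (0.27, adjusted p = 0.0978). That of Fgf8 was lost with quantile scaling (-0.75, adjusted p = 0.1355) and with edgeR (adjusted p = 0.168). For NP minus SP the differences were 1.55 for Fgf9, 0.65 for Fgfr2, 0.91 for Fgf2 and 2.22 for Fgfr3. Here the call of Fgf9 was lost with edgeR (0.49, adjusted p = 0.364) and that of Fgfr2 with the replicate block (limma adjusted p = 0.0560).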

How the results depend on the processing

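Over the alternatives, 2596 values of single members kept their side of the threshold, 33 of them uncalled values that changed sign, while 86 fell short of it, 34 passed it and 6 turned around with a call before or after. The reversals were Fgf10 in eUB minus E12.5 UB (-0.36 to 0.58 with a library left out) and in E12.5 minus E11.5 UB (-0.53 to 0.42), and, for UB minus SP, Fgf2 (-0.42 with a pseudocount of 0.1, -1.18 with edgeR) and Fgf9 (-0.50 and -0.83). Genes called in E12.5 minus E11.5 NP (850) were 469 with a filter at 5, 1912 with DESeq2 and 1572 in a fit of all libraries, and members called (2) were 1 with no filter, a filter at 5, quantile scaling, edgeR or the replicate block. In E12.5 minus E11.5 SP (1162 genes, 1 member) they were 762, 2097 and 3141 genes, and 3 members with DESeq2 or all libraries. The replicate block, a paired fit that changed most where E12.5 NP and SP were compared (7961 genes), gave 2365 genes in E12.5 minus E11.5 UB, where same-numbered libraries share only a number, and a call of Fgfr3 in E12.5 UB minus NP (adjusted p = 0.0043). With each library left out in turn, genes called ranged from 2332 to 5982 in E12.5 minus E11.5 UB, 147 to 2249 in NP, 392 to 2889 in SP and 2924 to 4976 in E12.5 UB minus NP. Members ranged from 1 to 5 in eUB minus E11.5 UB, 2 to 4 in eUB minus E12.5 UB and in E12.5 minus E11.5 UB, 0 to 3 in NP, 1 to 3 in SP, 5 to 8 in E12.5 UB minus SP, 3 to 7 in eUB minus iNP and 4 to 7 in eUB minus iSP. Members fell below the filter where a library of their higher group was left out, and the cause of the other moves was not tested. Of calls, 40.3% were higher in E12.5 minus E11.5 UB with upper-quartile scaling (-13.17 points), 44.7% in E12.5 UB minus NP with quantile scaling (-11.65) and 47.4% in the NP minus SP difference with quantile scaling (-12.09). Upper-quartile scaling moved the median of all genes by -0.12 in eUB minus iNP. For members below the filter, 7 tests passed the threshold in limma with no filter and 8 with all 36 libraries, and 1 and 2 were lost. Depth limits Fgf1 and Fgf7, Fgf9 and Fgf8 in ex-fetu SP and Fgf2 in eUB, among others.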
